A study of Mus musculus with 8 samples.

Results

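Away from transcription start sites (TSSs), many DNA break peaks of Chd1 KO mouse embryonic stem (ES) cells held the sequence motif of a G-quadruplex. The peaks described here were picked by that motif, and folding was not measured. Here a distal peak had its summit over 1 kb from every annotated TSS and in no coding sequence. A distal peak was kept if it held 4 runs of 3 or more G on either strand with gaps of 1 to 7 bases, together with an unbroken stretch of G and C bases no shorter than 12 bp. Peaks with a perfect CA or TG repeat of 20 bp or more, or with C and G in strict alternation over 12 bp or more, were dropped. The rule kept 992 of 5671 Chd1 KO peaks, or 17.5% (95% Wilson interval 16.5% to 18.5%), and 52.4% of the 1892 distal ones. Of 1100 distal peaks with the G-run motif, 23 were dropped for a CA or TG repeat, 8 for an alternating stretch and 77 for the lack of a GC stretch. The rule lets a long unbroken run of G count as 4 runs. With maximal G runs only, so that each gap starts and ends with another base, 575 of the 992 peaks were left (58.0%). These are called interrupted here, and the other 417 met the rule only through a long G run.

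The study labelled DNA ends with terminal transferase in fixed nuclei, captured them and sequenced them (DSB-seq). Chd1, a chromatin remodeler, was deleted on both alleles in the KO (Chd1Δ/Δ, an established line), while the control (Chd1fl/Δ) also carried 1 deleted allele and kept the other flanked by loxP sites. Each genotype had 2 replicates, combined before peaks were called, so 1 list stood for each genotype and no spread between replicates could be given. Intervals on shares cover counting error only, and peaks are not replicates of a genotype.

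A G-quadruplex is a stack of planar guanine tetrads that forms when 4 runs of G on the same strand fold back on each other, with the bases between the runs as loops. Short loops and long runs generally favour the fold in vitro, and the complementary strand is left unpaired or free to take up other structures. Such sequences can slow DNA polymerases and are known places of genome instability when the helicases that unwind them are missing.

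The sequences below show kinds of site that the 992 peaks held. All are from mm9 and read 5′ to 3′ on the G-rich strand, with capitals for the runs of 3 or more G inside the motif site and 15 flanking bases in lower case on each side. The first set belongs to peaks that overlapped a control peak. The site near Gm11785 (minus strand, chr4:3384870-3384976) and the site near Rps6-ps2, a ribosomal protein pseudogene (plus strand, chr8:91294086-91294136), were intergenic.
Gm11785: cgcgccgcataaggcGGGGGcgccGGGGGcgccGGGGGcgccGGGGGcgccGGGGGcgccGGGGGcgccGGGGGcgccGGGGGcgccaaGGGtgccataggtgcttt
Rps6-ps2: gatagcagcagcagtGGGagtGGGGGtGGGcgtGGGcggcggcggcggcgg

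The next sequence shows a strong peak that had no control peak, on a long G run in an intron of Arhgap24, a GTPase-activating protein (minus strand, chr5:103240817-103240861). It is an example of the 417 peaks without interrupted runs.
Arhgap24: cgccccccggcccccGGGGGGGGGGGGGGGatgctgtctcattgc

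For comparison, a distal site under no peak was chosen after the data had been seen, as the longest of at most 100 bp with the unit GGGA. It lay in an intron of the potassium channel gene Kcnq5 (minus strand, chr1:21416897-21417026). How well reads could be placed there was not measured here.
Kcnq5: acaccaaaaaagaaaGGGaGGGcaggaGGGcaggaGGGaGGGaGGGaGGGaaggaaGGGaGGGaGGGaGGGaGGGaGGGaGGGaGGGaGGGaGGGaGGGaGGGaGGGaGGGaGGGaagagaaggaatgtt

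Few of the peaks were shared with the control. At least 1 bp was in common with a control peak for 3 of the 992 peaks, or 0.302% (interval 0.103% to 0.885%), against 0.864% of all Chd1 KO peaks. Among the 900 other distal peaks 46 overlapped a control peak, or 5.11%, a difference of −4.81 points (Newcombe interval −6.46 to −3.42). Most of those shared peaks were in 2 classes, with 23 of 501 on CA repeats and 21 of 178 without a GC stretch. All 49 shared peaks were distal, where the share was 2.59%, and none of the 3673 peaks within 1 kb of a TSS overlapped a control peak, which allows a share of up to 0.0817%. The members were thus low against other distal peaks, and not against peaks at TSSs. Nor did any of the 141 distal peaks on other GC stretches overlap a control peak (up to 2.13%). The control list held only 54 peaks, 3 of which met the same rule.

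The 3 shared places had by their choice a control signal strong enough for a peak call. At Dpp6, a gene for an auxiliary subunit of potassium channels, the fold enrichment, reads at the summit over local background with 1 added to each, was 10.3 with 56 reads in the KO and 10.9 with 55 reads in the control, and the summits lay 63 bp apart. Near Gm11785 (chr4:3384564-3385118) it was 7.89 with 32 reads in the KO and 10.9 with 42 reads in the control. Near Rps6-ps2 (chr8:91293897-91294353) the KO had the higher value, 9.78 with 60 reads against 4.96 with 22 reads. With 1 combined peak list per genotype no difference at these 3 places was tested. Dpp6 and Rps6-ps2 were also the highest and second highest of all members by fold enrichment.

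The members were peaks of middling strength. Their median fold enrichment was 4.75 (95% interval of the median 4.64 to 4.78), with quartiles of 4.18 and 5.28 and a range of 3.14 to 10.3. Distal peaks on alternating C and G and on CA repeats each had a median of 5.26, and those on other GC stretches 4.34. Peaks within 1 kb of a TSS had a median of 4.53. A typical member rested on 21 reads at its summit, over a background of 3.62 reads, and was 268 bp wide. Interrupted members and those with only a long G run were alike in this measure, with medians of 4.73 and 4.75.

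**Figure D1:**
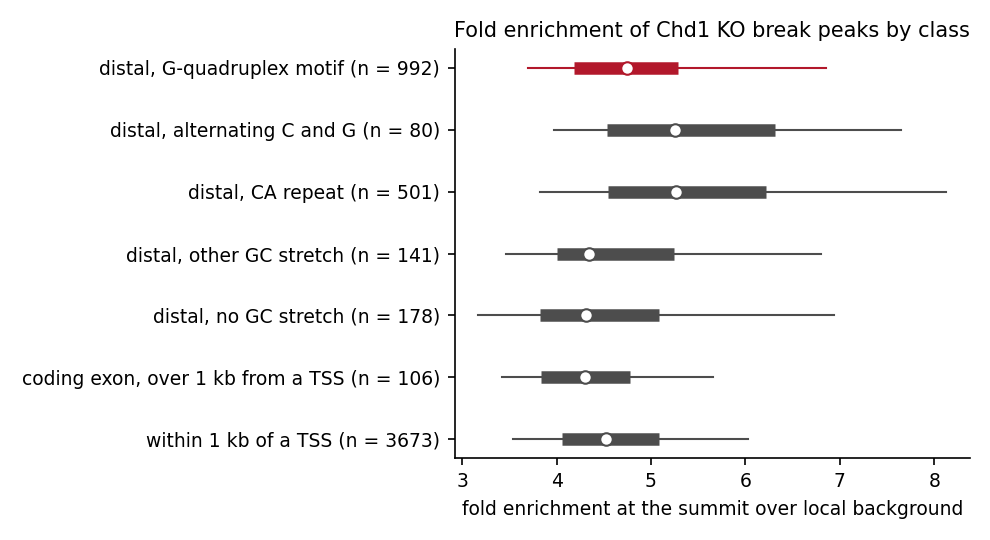
Fold enrichment at the summit of Chd1 KO peaks, by class, with the median as a point, the quartiles as a thick bar and the 5th to 95th percentiles as a thin line. The members (top, n = 992) sat between the repeat classes and the peaks within 1 kb of a TSS.

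The strongest members included both kinds of site. Behind Dpp6 and Rps6-ps2 came Arhgap24 at 9.32 (chr5:103240685-103241029), the peak near A830009L08Rik at 9.17 and Pkig, an inhibitor of protein kinase A, at 8.86 (chr2:163523695-163524090). The next were the peak near Tcf7l2, which encodes a transcription factor of Wnt signalling, at 8.81, the centriole gene Poc1a at 8.62 (chr9:106189191-106189497) and Gabbr2, a subunit of a GABA receptor, at 8.27 (chr4:46729512-46729923). Places 9 and 10 went to the peaks near Zfp607 at 8.14 (chr7:28678544-28678933) and near Ppp2r5c, a regulatory subunit of a protein phosphatase, at 8.14 (chr12:111622693-111623035). Among the 102 members with 8 or more G runs in a site the median was 4.97, slightly above that of all members.

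Across all members, fold enrichment rose weakly with the length of the longest GC stretch (Spearman 0.268, n = 992) and fell weakly with the GC content of the whole peak (−0.199). These are descriptions over peaks of the same library, and how background and base composition relate was not measured here. The rise was uneven over the classes of length. The median was 4.41 with a GC stretch of 12 to 15 bp, 4.67 with 16 to 19 bp, 4.54 with 20 to 23 bp, 4.66 with 24 to 27 bp, 5.15 with 28 to 35 bp and 4.89 with 36 bp or more. It hardly moved with the longest G run (Spearman −0.0691), with the highest median, 4.84, at runs of 5 and the lowest, 4.54, at runs of 15 to 19.

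The members were less GC-rich than peaks at TSSs. Their median GC content was 55.8%, with 47.3% in the flanks, while peaks within 1 kb of a TSS had 76.6%. Over all distal peaks, members included, the median was 53.5%, and every other distal class was also below the peaks at TSSs. The ratio of observed to expected CpG was 0.379 in the members, 0.938 near TSSs and 0.539 over all distal peaks. Distal peaks without a GC stretch were about as low, at 0.368. The other distal classes were higher, with 0.718 on other GC stretches, 0.782 on CA repeats and 0.790 on alternating C and G. The rule drops peaks of the last 2 kinds, and its part in the low ratio was not measured. Most members held a single motif site, 901 of 992, and the G runs lay on the plus strand only in 473, on the minus strand only in 474 and on both in 45.

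Long G runs were common, which the rule partly fixes, since it counts a long run as 4 runs. They were common over comparable distal motif sites too. With a GC stretch of 12 to 15 bp, 14556 of 18769 sites had a longest run of 8 to 15, against 39 of the 134 under a peak. With 20 to 23 bp, 2049 of 4238 sites had a run of 16 or more, against 66 of the 194 under a peak. In both classes long runs were less frequent under a peak. In the members, the longest run had 6 or more G in 753 (75.9%) and 15 or more in 314 (31.7%), while only 33 had no run above 3. Among 559 interrupted members whose nearest site had at least 4 runs, the shortest gap was a single base in 480 (85.9%), and all gaps had 3 bases or fewer in 249. The longest site was mostly G in 353 members and a tandem repeat with a longer unit in 124 (12.5%). Telomere-like sequence, with 2 or more TTAGGG in tandem, was in 1 member. It was rare over all distal motif sites as well, where 379 of 441496 were GGGTTA repeats. That count asks for 3 copies, so the 2 are not the same measure.

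Most motif sites in the genome had no break peak. Of 441496 distal motif sites in mm9, 1245 had their centre under a Chd1 KO peak, which is 0.282%, and 5 had it under a control peak. Longer GC stretches went with higher shares. A peak lay over 0.0514% of sites with a stretch under 12 bp, 2.94% of the 35271 sites with 12 bp or more and 11.7% of the 6432 with 20 bp or more. Stretches of 12 to 15 bp gave 0.714%, those of 24 to 27 bp 19.9%, and those of 36 bp or more 36.7%. Of the 992 members, 947 held a distal site that overlapped a GC stretch of at least 12 bp, and 737 had a stretch of 20 bp or more.

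The order by G-run length turned once sites with similar GC stretches were compared. Over all distal sites the share under a peak was highest for the longest runs, 4.45% with runs of 16 or more against 0.149% with runs of 3 to 4. Within GC stretches of 20 to 23 bp it went the other way, from 17.8% with runs of 3 to 4 down to 3.22% with 16 or more. At 28 to 35 bp the shares were 52.6% (30 of 57) and 21.8% (75 of 344). Interrupted sites showed the same turn against sites with only a long run: 0.195% against 0.995% over all sites, but 5.51% against 1.86% where the GC stretch was 12 bp or more.

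**Figure D2:**
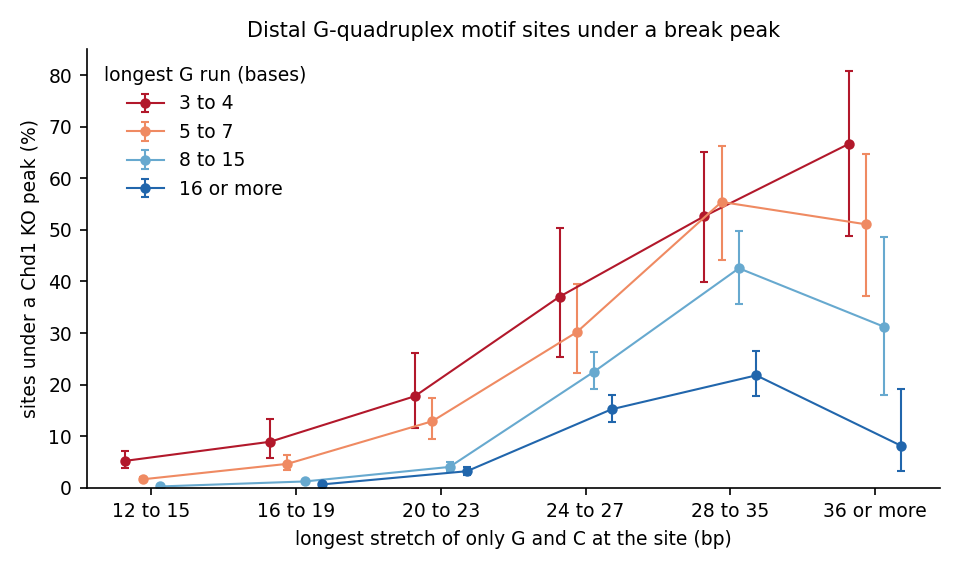
Share of distal G-quadruplex motif sites under a Chd1 KO peak, by the longest stretch of only G and C at the site (bp) and, in colour, the longest G run, with 95% Wilson intervals as bars. The share rose up to 28 to 35 bp in every colour and was lowest for runs of 16 or more from 16 to 19 bp on.

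With a GC stretch of at least 12 bp, sites with more G runs and shorter gaps were under a peak more often, which did not hold for G runs over all sites. The share rose from 1.86% with fewer than 4 maximal runs to 4.07% with 4, 9.75% with 8 to 15 and 16.9% (11 of 65) with 16 or more. Over all sites the same classes had 0.995%, 0.164%, 0.159% and 0.244%. Where the GC stretch was at least 12 bp, the share fell from 9.19% when every gap was 1 base to 4.42% when the longest gap had 4 to 7 bases. A fall with distance from a TSS was seen only without regard to the GC stretch. Over all sites the share dropped from 0.422% at 1 to 5 kb to 0.116% beyond 100 kb, but among sites with a GC stretch of 20 bp or more it was 10.4% and 11.2% at these distances.

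The base in the gap was mostly C under peaks and mostly A elsewhere. Of 2152 gaps of 1 base in sites under a Chd1 KO peak, C filled 74.0% (interval 72.1% to 75.8%), A 13.8% and T 12.2%. The interval counts each gap on its own, though a repeat can hold many like gaps, so it is too narrow. In sites under no peak C filled 4.61% of 752934 such gaps, A 56.9% and T 38.5%. A G-run site with C in its gaps is a GC stretch as well, so these shares and the GC stretch are not separate measures.

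Tandem repeats differed by unit. GGGGCC repeats were under a peak at 7 of 12 distal sites (58.3%, interval 32.0% to 80.7%). GGGGC repeats were under a peak at 38 of 206 (18.4%) and GGGC repeats at 23 of 126 (18.3%). Few repeats of 3 units without C had a peak: 1 of 21674 for GGGA, 1 of 2533 for GGGT and 0 of 379 for GGGTTA, which allows up to 0.792%. Sites made mostly of G had 378 of 19682 (1.92%), and GGGGCA, with both C and A between its runs, had 6 of 357 (1.68%). Holding C did not by itself go with a high share, since GGGCA had 1 of 289 (0.346%) and GGGGCT 1 of 308 (0.325%). The unit GGGAGT had 1 of 31 (3.23%, interval 0.572% to 16.2%). It is the unit of the member near Rps6-ps2, whose site, printed above, holds a C in a gap. That site is thus not a repeat free of C. At a similar length of 20 to 40 bp the units still differed, though GGGGCC, at 4 of 8 sites under a peak (50.0%), no longer led GGGC, at 16 of 32. In this range GGGGC had 21 of 117 (17.9%), G 314 of 6636 (4.73%) and GGGA 0 of 8493 (up to 0.0353%).

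Whether the G-run motif itself went with a peak depended on how GC stretches were matched. Without regard to composition, stretches of 20 bp or more that overlapped a motif were under a peak less often than those that did not, 11.7% (753 of 6451) against 19.5% (138 of 709), a difference of −7.79 points (interval −11.0 to −4.93). Stretches in strict alternation were set apart, with 62.5% (307 of 491). The motif stretches were more one-sided, however, with G or C making up a median of 90.5% of the bases against 65.2%. Where the commoner base made up under 80%, the order turned, with 35.6% (192 of 540) against 22.7% (129 of 568), a difference of 12.8 points (7.51 to 18.1).

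Within classes split by both length and composition, the differences computed between stretches with and without the motif did not exceed their counting error. All stretches of 24 bp or more with the commoner base under 80% still differed when pooled, by 11.9 points (2.79 to 20.5), at 47.1% against 35.2%. Split by length, they did not. With the commoner base under 80%, the difference was 3.29 points at 20 to 23 bp (−2.89 to 9.88), 9.86 at 24 to 27 bp (−1.24 to 20.3) and 3.94 at 28 bp or more (−10.0 to 18.2). All 3 were positive, and their intervals are wide enough to hold differences of several points. With 80% or more of the commoner base at 20 to 23 bp, the difference was −0.757 points (−5.84 to 1.79). That class mixes unlike stretches, and between 80% and 90% the shares at this length were 6.23% with the motif and 4.88% without. For all stretches of 20 bp or more with 80% or more of the commoner base, the difference was 3.11 points (−2.24 to 6.20). Over all lengths from 20 bp, the shares between 80% and 90% were 18.2% (375 of 2066) with the motif and 6.77% (9 of 133) without, and from 24 bp they were 31.9% (306 of 959) and 30.0% (3 of 10). The size of the difference thus varied with both length and composition. Over all lengths from 20 bp, and from 24 bp, each composition class holding both kinds had the higher share with the motif, though some were small. At 20 to 23 bp the class under 60% went the other way, with 0 of 19 stretches with a motif against 20 of 147 without. The intervals of these shares overlapped (up to 16.8% against 8.98% to 20.1%). Stretches of 12 to 15 bp, not split by composition, gave 0.219 points (0.0434 to 0.407). All longer classes not split by composition were negative. They gave −1.50 points at 16 to 19 bp (−2.12 to −0.931) and −9.13 at 20 to 23 bp (−12.4 to −6.34). At 24 to 27 bp the value was −4.49 (−13.0 to 2.59), at 28 to 35 bp −19.1 (−32.0 to −5.86) and at 36 bp or more −29.9 (−52.3 to 2.32). These strata and the cut at 80% were chosen after the data had been seen.

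**Figure D3:**
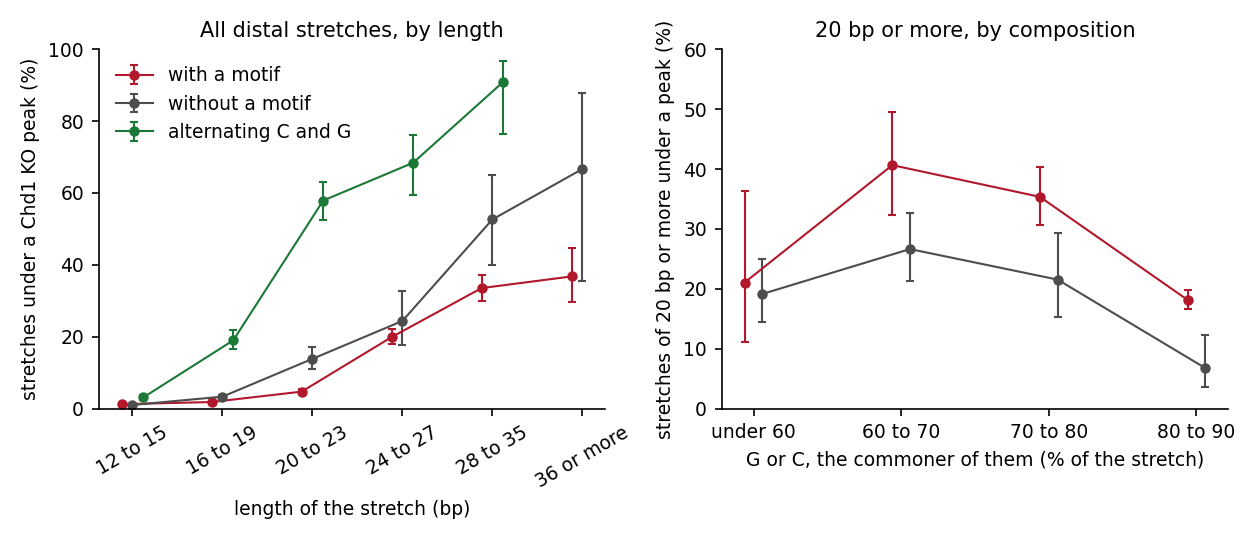
Share of distal stretches of only G and C under a Chd1 KO peak, by length in bp (left) and, for stretches of 20 bp or more of all lengths together, by the percent of the commoner base (right), with 95% Wilson intervals as bars. Stretches with a motif lay below those without from 16 bp on in the left plot and above them in the right plot.

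Summits sat close to the motif, which the rule partly fixes, since a member's interval had to hold the motif and was a median of 268 bp wide. The median distance from the summit to the centre of the nearest site was 41 bp (interval of the median 37 to 43.5), and 904 of the 992 summits (91.1%) were within 100 bp. Only 168 (16.9%) fell inside the site. To the longest GC stretch the median distance was 41.25 bp in members, close to the 44 bp of other GC stretch peaks and above the 25.5 bp of peaks on alternating C and G. Along the G-rich strand the summit was 3′ of the site in 561 of 989 members (56.7%, interval 53.6% to 59.8%), with a signed median of 14 bp. That shift was not even between the strands. In genome coordinates the median offset was 4.5 bp (interval −7.5 to 11.5) for sites with G on the plus strand. For those with G on the minus strand it was −20 bp (−26 to −15.5). The summit had the higher coordinate in 258 of 498 plus-strand cases (51.8%, 47.4% to 56.2%) and in 188 of 491 minus-strand cases (38.3%, 34.1% to 42.7%). A 3′ shift beyond counting error was thus seen where G lay on the minus strand, and not where it lay on the plus strand. Whether summits on both strands shared a shift to lower coordinates was not tested, so this is not shown to be a difference between strands. The midpoint of the peak gave a median distance of 29 bp.

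**Figure D4:**
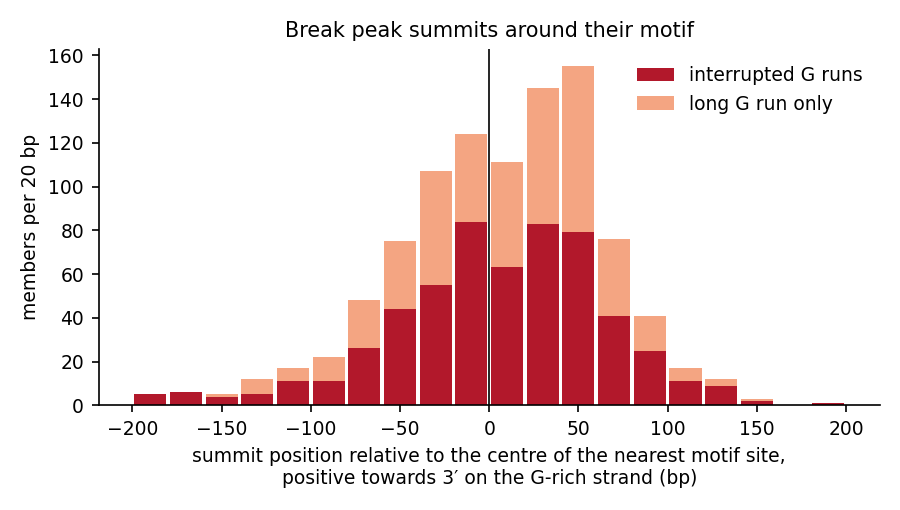
Number of members per 20 bp by the position of the summit relative to the centre of the nearest motif site, in bp and positive towards 3′ on the G-rich strand, for interrupted and long-run members. Both kinds had more summits on the 3′ side, 55.1% and 59.0%.

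The members lay in introns and between genes in nearly equal numbers. Introns held 461 (46.5%), against 41.2% of the other distal peaks, a difference of 5.25 points (0.772 to 9.69), and 509 were intergenic, 17 in untranslated exons and 5 in non-coding exons. The median distance to a TSS was 17417.5 bp, and 646 members were over 10 kb from every TSS. G runs were on the coding strand of the host gene in 213 of 455 members (46.8%, interval 42.3% to 51.4%). For sites under no peak with a GC stretch of 12 bp or more that share was 45.4%, and the difference of 1.43 points did not exceed its error (−3.17 to 6.09).

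A break peak at the promoter of the host gene was no more frequent for members than for other distal peaks. It was found for 157 of 456 members in protein-coding genes (34.4%) and for 127 of 361 other distal peaks (35.2%), a difference of −0.750 points (−7.33 to 5.77). Over all protein-coding genes the share was 15.9% (3560 of 22367), but the genes were not matched for length, and the host genes had a median of 98.6 kb. The members were spread over 432 protein-coding genes, of which 20 held 2 or more. Gm20388, a gene model of 4435 kb that spans many other genes, held 12, and Tmcc3 and Zfp536, a zinc finger gene, held 3 each.

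The spacing of members was not compared with that of random positions, so no clustering or lack of it can be read from these values. The median distance to the nearest other member was 484 kb, and 14 members had another within 5 kb. The closest pair lay 0.339 kb apart near Otx1, a homeobox gene (chr11:21893059-21893359 and chr11:21893475-21893715), with fold enrichments of 4.95 and 4.65. A pair near Mir17hg, the host transcript of a microRNA cluster, was 0.545 kb apart (chr14:115439771-115440037 and chr14:115440368-115440599), with 4.62 and 3.81. A member near Gm12974 (chr4:133369420-133369644), at 4.06, had its neighbour 0.634 kb away. These 5 peaks were far richer in GC than most members, at 76.1% to 82.8%.

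The members nearest to a TSS and farthest from any were of modest height. Just past the limit of 1 kb were peaks in Ctdsp2, a phosphatase of the RNA polymerase II tail (chr10:126416479-126416878, fold enrichment 4.44), near Abhd12b (chr12:71254027-71254228, 3.82) and in Zswim6 (chr13:108679135-108679357, 3.85). The farthest were 2 peaks near Cdh5, a cadherin of endothelial cells, at 617 kb (chr8:106008227-106008519, 4.54) and 518 kb (chr8:106107291-106107515, 4.06), and a peak 517 kb from Gm16899 (chr1:7904941-7905412, 4.30).

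The thresholds of the rule cut through a gradual range. Members with the summit 1 to 1.5 kb from a TSS (n = 40) had a median fold enrichment of 4.19, and peaks at 0.5 to 1 kb (n = 167) 4.49. With a GC stretch of 12 to 13 bp (n = 52) the median was 4.37, and peaks just outside at 10 to 11 bp (n = 38) had 4.45.

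Chromosomes differed in how many of their sites were under a peak. Of the sites with a GC stretch of 20 bp or more, 21.4% on chromosome 8 were under a peak (72 of 336, interval 17.4% to 26.1%), against 11.4% on the other autosomes. The X chromosome had 0 of 147, which allows up to 2.04%, and 1 member, but it held only 12 of the 5671 Chd1 KO peaks of any class. The median background at the summits of all Chd1 KO peaks was 4.56 reads on chromosome 8, 3.76 on the other autosomes and 3.18 on X, the lowest value in the list. The order was not the same throughout, since chromosome 12 also had 3.18 reads but a share of 9.32%. The part of the background in these shares was not tested, and the copy number of chromosomes in these cells was not measured here.

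**Figure D5:**
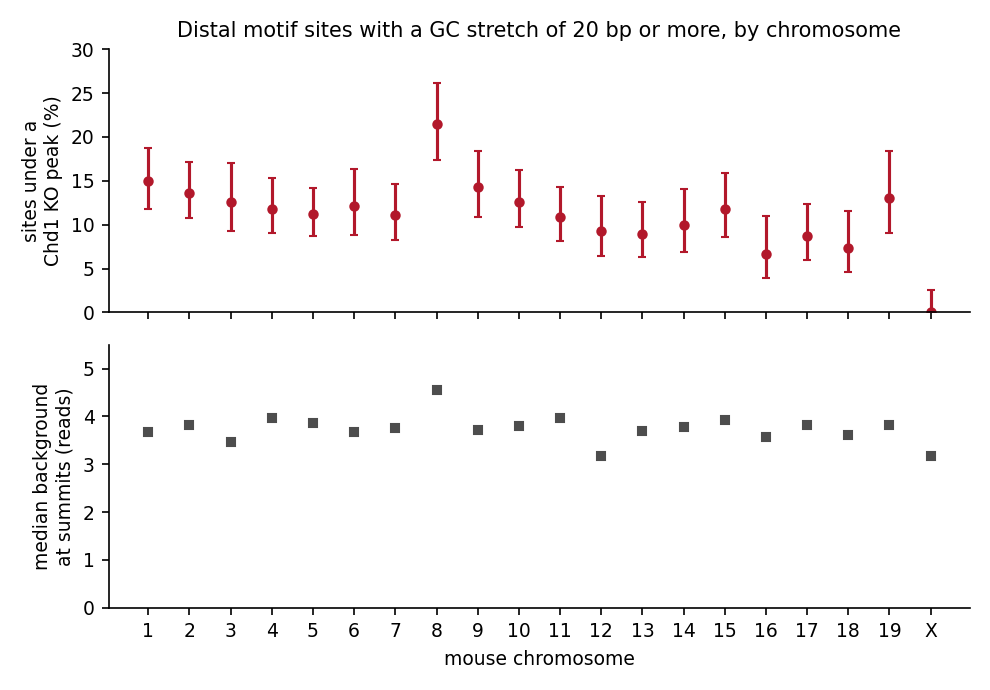
Share of distal motif sites with a GC stretch of 20 bp or more under a Chd1 KO peak (top, percent, 95% Wilson intervals) and median background at the summits of all Chd1 KO peaks (bottom, reads), by chromosome. Of the autosomes and X, chromosome 8 was highest and X lowest in the share, at 21.4% and 0%.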

How the data were processed

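Bowtie2 was used by the authors for alignment to mm9. They removed reads with a mapping quality under 13, left 1 read per position, combined replicates, extended reads to 200 bp and ran MACS2 with a cutoff of 0.05 on q. Blacklisted regions were taken out. The fold enrichment is a ratio that the authors deposited, reads over local background at the summit, with 1 added to each, within a combined library and without scaling between genotypes. Each peak also has a −log10 p and a −log10 q, both deposited by the authors. Chd1 and RNA polymerase II ChIP-seq were not analysed here.

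Peaks were placed on GENCODE M1 and mm9 sequence; none of 5725 peaks ended beyond its chromosome. Overlapping motif matches on the same strand were merged into sites, and a site was under a peak when its centre was. Reads and background at summits were recovered from the fold enrichment and the p-value. The lowest background was 3.18 reads in the KO and 2.95 in the control, close to 29.8 M and 27.6 M reads, and the weakest peaks had 13 and 17 reads. A repeat needed 85% of its bases equal to the base a unit further on and 3 copies, with a unit of at most 60 bp. After a first run had shown units of only G with several lengths, these were counted as G.

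Shares have 95% Wilson intervals, differences Newcombe intervals, and a count of 0 the limit of 3 counts. No test was run, as each genotype had 1 list. Named members are the 10 with the highest fold enrichment, all that overlap a control peak, the 3 nearest to and 3 farthest from a TSS, and the 5 nearest to another member. Beyond these, Gm20388, Tmcc3 and Zfp536 are named as the host genes with the most members, and Celf4 as another of the 20 with 2 or more. The planned group of the 5 with the most G runs in a site, and the sequences of some members, are not reported here. Alternatives varied the motif, the distance, the overlap, the q-value and the position of a peak. The members and lists were chosen with earlier results of these data known. The comparison of GC stretches and its strata, the repeat units and their length range, the bases in gaps, the GC stretch of 20 bp for chromosomes and TSS distance, the finer classes of fold enrichment and the printed site under no peak were chosen after these values had been explored in several passes, and no interval is adjusted for that. Python 3.11.15, NumPy 2.4.6, SciPy 1.17.1, pandas 2.3.3, statsmodels 0.14.6 and Matplotlib 3.10.9 were used, and the steps were tested on simulated data.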

Additional observations from a re-analysis of the deposited data

How the results depend on the processing

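Of 36 alternatives to 7 results, 30 stayed close and 6 moved. For the number of members, close means within 1.5 times, and for all other results within the 95% interval of the value as reported. The number of members was 575 with maximal G runs only and 646 over 10 kb from every TSS, against 992. Others counted as close still changed it, to 737 with a GC stretch of 20 bp or more and 859 with gaps of 1 to 3 bases. The share of distal motif sites under a peak, 0.282%, was 0.300% on autosomes only, 0.195% with maximal G runs only and 0.244% over 10 kb from a TSS. The median distance from summit to motif was 41 bp and became 29 bp from the midpoint of the peak. Some alternatives could not move a value: no member had a q-value above 0.01, so that cutoff left every member in place, and a cutoff of 0.001 left 970. The alternatives with maximal G runs for fold enrichment, distance, strand and promoter peaks were added after the data had been seen.

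From the peak lists no paired analysis was possible, because the replicates had been combined before peaks were called. Leaving out a replicate could not be run on them for the same reason. The reads of each replicate were not analysed here. A site under no peak is a site without a call, and was not shown to lack breaks. Reads of low mapping quality had been removed by the authors and the mappability of sites was not measured, which bears on every comparison of repeats. Cell line and genotype cannot be told apart.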

Other observations

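Of the 24 members on chromosome 18, 2 lay in Celf4, which encodes an RNA-binding protein, with fold enrichments of 4.04 and 5.68. On chromosome 16 the share of sites with a GC stretch of 20 bp or more under a peak was 6.63%, the lowest of the autosomes.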
